A study of Rattus norvegicus with 9 samples.

Results

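The mRNA of 10 immediate-early and AP-1 genes was followed in rat liver: Fos, Fosb, Fosl1 and Fosl2 of the Fos family, Jun, Junb and Jund of the Jun family, the transcription factor gene Egr1, the phosphatase gene Dusp1, and the proto-oncogene Myc. They were chosen by name, as the AP-1 subunits and the best known genes that are switched on with them. All 10 were found by symbol among the 32883 genes of the deposited table. The livers came from 9 male Sprague-Dawley rats, 3 in each of 3 groups, with 1 mRNA library per rat. The 3 normal control rats (N1, N12 and N3) received no DEN. The 3 DEN model rats (M13, M17 and M24) received 0.01% diethylnitrosamine (DEN), a liver carcinogen, by weekly intraperitoneal injection on a schedule that ran up to 16 weeks, and the 3 PZH administration rats (G27, G28 and G42) received DEN in the same way together with Pien-Tze-Huang (PZH), a traditional Chinese medicine compound. The PZH dose and the week at which these 9 rats were killed, and so the number of DEN injections each had received, are not given in the sources used here. All rats were fasted and were under pentobarbital when tissue was taken. Rats were assigned by the letter that opens their name, since the deposited treatment tag of the M rats reads PZH as well; the column names of the table carry the same 3 letters.

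AP-1 is a dimer of a Jun protein with a Fos, Jun or ATF family protein that binds DNA and carries growth factor, cytokine and stress signals from the MAP kinases to target genes. Most of its subunit genes are immediate-early genes: their mRNA rises within minutes of a stimulus without new protein synthesis and is short-lived. In liver, c-Jun is needed for hepatocyte proliferation during regeneration and is known to promote the early steps of chemically induced tumours. Egr1 and Dusp1 belong to the same early wave; Dusp1 (MKP-1) removes the activating phosphates from p38, JNK and ERK and so closes the loop. Myc drives ribosome production and cell growth and is raised in regenerating and malignant liver.

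A pair of promoters is printed because these genes stand at opposite ends of the data: Dusp1 had the largest called difference of the 10 genes in both comparisons with the DEN model group, and Fosl1 was at or near 0 outside the DEN model group. Each is the 250 bases before the transcription start, 5′ to 3′, from RefSeq on build GRCr8, Dusp1 at chr10:17184603-17184852 and Fosl1 at chr1:212183635-212183884, both on the plus strand. Capitals mark the cAMP response element TGACGTCA and the E-box CACGTG, the letters bound by CREB/ATF dimers and by Myc-Max, and the Fosl1 stretch has no capitals.
Dusp1: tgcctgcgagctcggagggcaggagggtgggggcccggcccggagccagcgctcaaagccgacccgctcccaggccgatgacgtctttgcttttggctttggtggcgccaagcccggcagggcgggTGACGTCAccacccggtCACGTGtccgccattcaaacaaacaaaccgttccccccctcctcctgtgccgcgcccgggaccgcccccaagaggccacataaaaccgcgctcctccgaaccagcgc
Fosl1: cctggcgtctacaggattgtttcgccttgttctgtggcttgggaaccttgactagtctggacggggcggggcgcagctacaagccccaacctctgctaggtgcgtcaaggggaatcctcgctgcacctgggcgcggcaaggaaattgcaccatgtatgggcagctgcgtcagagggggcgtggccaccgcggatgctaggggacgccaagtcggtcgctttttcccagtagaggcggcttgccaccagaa
In Dusp1 the cAMP response element lay at -124 to -117 and the E-box at -107 to -102 from the start. Both motifs read the same on either strand and they do not overlap.

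The RefSeq promoter table matched 7 of the 10 genes, all but Fos, Jun and Myc. The AP-1 site TGANTCA, searched on both strands, was in none of the 7 stretches, against 6.34% of all 33469 promoter stretches of this length. The cAMP response element was in Dusp1 and, at -221 to -214, in Jund (1.59% of all stretches), and the E-box was in Dusp1 alone (5.59% of all). The CArG box, the site of serum response factor, occurred 2 times in Egr1, at -105 to -96 and -83 to -74, and in no other member (1.5% of all stretches held at least 1). A match is a description of letters in this window.

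The 9 libraries held 14922973 to 27161496 counted reads. Levels are given as CPM (reads of a gene scaled to a common library size) after TMM scaling, which sets the bulk of genes equal between libraries; the TMM factors were 0.731 to 0.799 in normal control, 1.21 to 1.58 in DEN model and 0.864 to 0.942 in PZH administration livers, so the scaling itself differs by group. Scaling by library totals instead moved the median over all genes, in log2 fold change, from 0.03 to 0.89 (DEN model against normal control) and from 0.01 to -0.67 (PZH administration against DEN model), and where that ends a call or turns a direction of a member it is said beside the gene. On library totals 57% of all genes were higher and 6.72% lower after DEN, 3.9% higher and 39.9% lower with PZH against DEN alone, and 6.13% higher and 0.682% lower with PZH against normal control. A count of 3 reads corresponds to 0.125 to 0.252 CPM, intervals cover the spread between these rats only, and the labels say nothing more on how the 3 rats of a group were kept or drawn. Markers of several cell types differed in the DEN model livers: the summed hepatocyte markers lay at 29300 to 65500 CPM against 139000 to 151000 in normal control and 118000 to 153000 in PZH administration rats, the cholangiocyte and ductular markers at 212 to 649 against 12.9 to 20.1 and 81.0 to 101, the stellate cell and myofibroblast markers at 1030 to 3170 against 170 to 309 and 577 to 693, and the proliferation markers at 101 to 156 against 5.31 to 7.70 and 26.3 to 72.9. No list of cell type markers was at 0 in every rat. In bulk liver, fewer cells of a type and less RNA per cell cannot be told apart, and the part of these markers' cells in the results below was not tested.

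A single normal control rat stood apart in these genes. Rat N3 was the lowest of its group in 8 of the 10 members, and in 6 of the 9 members that passed the filter on low counts (Fos, Fosb, Jun, Junb, Egr1 and Dusp1) it was below 50% of both other normal rats. The same held for 9 of 29 other immediate-early genes (31.0%) and for 1150 of 14479 genes in all (7.94%). Egr1 in N3 was 11.2-fold, Fos 8.37-fold, Junb 6.50-fold, Jun 3.53-fold and Dusp1 2.46-fold below the mean of N1 and N12, while Myc was 1.22-fold below. In the PZH administration group G42 was also the lowest rat in 8 of 10 members, with Egr1 2.83-fold below the mean of the other 2. It was below 50% of both other rats in 1 of the 9 members that passed the filter (11.1%), against 4.39% of all genes. In the DEN model group M17 was the lowest in 7 members, and below 50% of both other rats in 2 of 9 (22.2%), against 2.72% of all genes. Results of the members are therefore also given without N3 where it decides them, and so are several list counts.

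**Figure D1:**
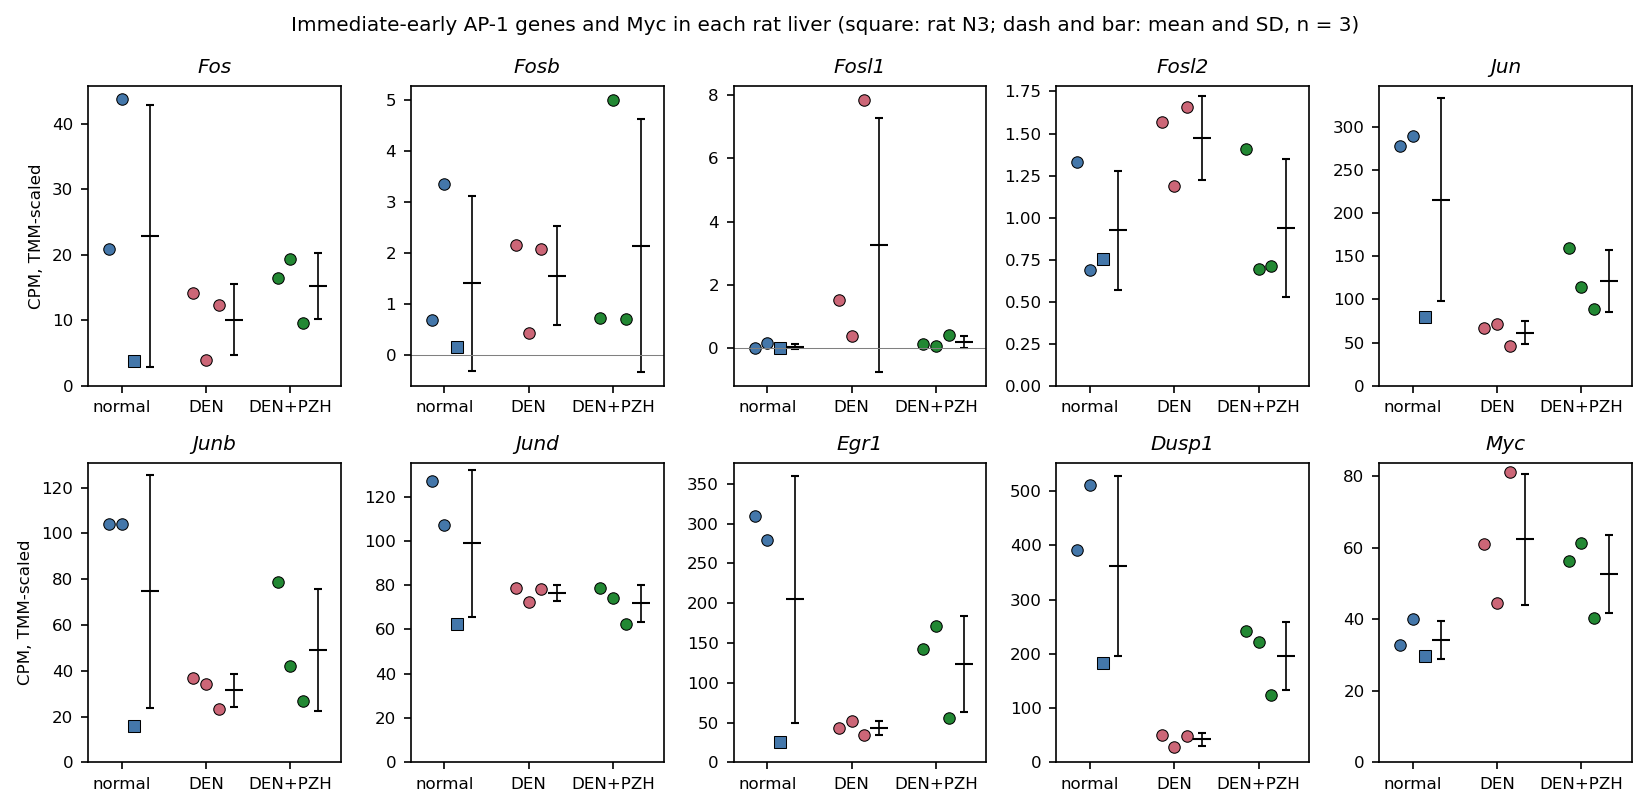
TMM-scaled CPM of each of the 10 genes (y axis, 1 panel per gene) in each group of rats (x axis); points are rats, the square is rat N3, and the dash and bar are mean and SD of 3 rats. Dusp1 in the 3 DEN model rats lies at 27.6 to 50.1 CPM, below all 6 other rats, and the square of N3 is the lowest normal rat for 8 of the 10 genes.

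The first comparison asked how these genes stood in livers after DEN against normal livers. With edgeR's quasi-likelihood test and Benjamini-Hochberg adjustment over the 14255 genes tested, Dusp1, Egr1 and Jun were lower and Myc was higher in the DEN model livers, 4 of the 9 members tested. Much of the transcriptome differed between these groups: 45.8% of all tested genes passed the same threshold, an adjusted p under 0.05, with 25.3% higher and 20.5% lower. The members' share of 4 in 9 (44.4%) is near that background. The study's thresholds were stricter: a log fold change beyond 2 in either direction, read here as log2, and an unadjusted P under 0.001. In these fits Dusp1 was the only member to pass them, against 12.3% of all genes.

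Dusp1, at chromosome 10 from 16970626 to 16973418 in the deposited coordinates (build not given in the sources used here), was at 391, 511 and 183 CPM in rats N1, N12 and N3 and at 50.1, 27.6 and 49.3 CPM in M13, M17 and M24. Even N3 was above every DEN model rat, so the groups did not overlap, which was so for 58.8% of all tested genes. The means were 362 ± 166 and 42.3 ± 12.8 CPM (SD, n = 3), 8.45-fold lower after DEN (log2 fold change -3.08, SE 0.42, 95% interval -4.03 to -2.13, edgeR adjusted p = 7.9e-04). Leaving out each rat in turn kept the call, with log2 fold changes from -3.4 to -2.74, and library totals gave -2.2.

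Jun, which encodes c-Jun (chromosome 5, 114011189 to 114014277), was at 277, 289 and 80.2 CPM in N1, N12 and N3 and at 66.9, 71.9 and 46.5 CPM in M13, M17 and M24. The ranges were apart, with N3 only just above M17. Jun fell from 215 ± 117 to 61.8 ± 13.4 CPM (SD, n = 3), 3.44-fold (log2 fold change -1.78, SE 0.44, 95% interval -2.79 to -0.78, edgeR adjusted p = 0.011). The call was lost on library totals, where the log2 fold change was -0.97; over the alternatives the adjusted p ran from 1.4e-04 to 0.067.

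Egr1, a zinc finger factor of the early growth response (chromosome 18, 27657628 to 27661429), was at 309, 279 and 26.2 CPM in N1, N12 and N3 and at 42.8, 52.1 and 35 CPM in M13, M17 and M24. The level in N3 was below that of every DEN model rat, so the groups overlapped through this single normal rat. Egr1 was 4.65-fold lower after DEN (205 ± 155 against 43.3 ± 8.57 CPM, SD, n = 3; log2 fold change -2.22, SE 0.71, 95% interval -3.84 to -0.60, edgeR adjusted p = 0.032). The call did not hold without M13, M24, N1 or N12 (log2 fold changes -2.21, -2.07, -1.83 and -1.92), nor on library totals (-1.42), and the adjusted p ran from 0.0011 to 0.11 over the alternatives.

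Myc (chromosome 7, 102586313 to 102591240) went the other way. It was at 32.8, 40.0 and 29.8 CPM in N1, N12 and N3 and at 61.1, 44.6 and 81.2 CPM in M13, M17 and M24. Every DEN model rat was above every normal rat, and N3 did not stand apart for this gene, whose coefficient of variation in normal livers was 15.4%. Myc rose 1.84-fold (34.2 ± 5.28 to 62.3 ± 18.3 CPM, SD, n = 3; log2 fold change 0.88, SE 0.24, 95% interval 0.34 to 1.43, edgeR adjusted p = 0.016). It passed on library totals as well (1.78), but the call was lost without M24 (0.65), N1 (0.83) or N3 (0.79), with adjusted p from 9.0e-04 to 0.063 over the alternatives.

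Of the other Jun genes, Junb (chromosome 19, 26092974 to 26094756), often an antagonist of c-Jun in growth control, was at 104, 104 and 16.0 CPM in N1, N12 and N3 and at 36.9, 34.4 and 23.2 CPM in M13, M17 and M24. N1 and N12 were above all DEN model rats and N3 was below them all. The difference did not pass (log2 fold change -1.22, SE 0.57, 95% interval -2.51 to 0.07, edgeR adjusted p = 0.11). Jund (chromosome 16, 20485029 to 20486707), the most evenly expressed Jun gene, was at 127, 107 and 62.4 CPM in N1, N12 and N3 and at 78.7, 72.2 and 78.4 CPM in M13, M17 and M24. Its difference did not pass either (log2 fold change -0.35, SE 0.25, 95% interval -0.92 to 0.22, edgeR adjusted p = 0.28), and on library totals its direction turned (0.50).

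In the Fos family none of the 3 genes tested passed. Fos (chromosome 6, 109300433 to 109303299), the prototype partner of c-Jun, was at 20.9, 43.7 and 3.86 CPM in N1, N12 and N3 and at 14.1, 3.96 and 12.3 CPM in M13, M17 and M24. N3 and M17 were at nearly the same low level, and the log2 fold change was -1.16 (SE 0.74, 95% interval -2.84 to 0.52, edgeR adjusted p = 0.23). Fosb (chromosome 1, 80214494 to 80221710) was at 0.702, 3.36 and 0.168 CPM in N1, N12 and N3 and at 2.17, 0.445 and 2.08 CPM in M13, M17 and M24, with 2 to 51 reads in these rats. The groups overlapped widely (log2 fold change 0.16, SE 0.91, adjusted p = 0.90), and leaving out M13, M24, N1 or N3 turned the direction, so no difference was detectable with this spread and these counts. Fosl2 (chromosome 6, 25598936 to 25616995), which encodes Fra-2, was at 1.33, 0.686 and 0.755 CPM in N1, N12 and N3 and at 1.57, 1.19 and 1.66 CPM in M13, M17 and M24. N1 reached into the DEN model range and the difference did not pass (log2 fold change 0.69, SE 0.44, adjusted p = 0.23), although it did on library totals (1.56).

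Fosl1 (chromosome 1, 220826560 to 220835066), which encodes Fra-1, the Fos protein of invasive carcinoma cells, did not pass the filter on low counts and was not part of the fit. It had 0, 2 and 0 reads in N1, N12 and N3 and 36, 8 and 189 reads in M13, M17 and M24, or 1.53, 0.396 and 7.86 CPM in the latter. Every DEN model rat was above every normal rat, but the level differed widely among the 3 and most reads were from M24. Set against a floor of 3 reads per library, which averages 0.238 CPM in the normal group, the DEN model mean of 3.26 CPM was at least 13.7-fold higher, and without M24 the bound was 4.0-fold. In a fit without the filter the edgeR adjusted p was 0.011. In the fit without N3 Fosl1 did pass the filter, and 0 of the 10 members tested there were higher.

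Leaving out rat N3 changed the calls of 4 members in this comparison. Without it, 6 of 10 members tested were lower after DEN and 0 higher, in a fit in which 21.1% of all genes were lower and 24.6% higher: Fos (log2 fold change -1.67), Jun (-2.18), Junb (-1.71), Jund (-0.60), Egr1 (-2.75) and Dusp1 (-3.40), while Myc (0.79) no longer passed. The count of members called ran from 2 (without M24, or without N1) to 6 over the leave-one-out fits, in which 32.7% to 45.7% of all genes passed. Fos, Junb and Jund passed in none of the other leave-one-out fits.

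**Figure D2:**
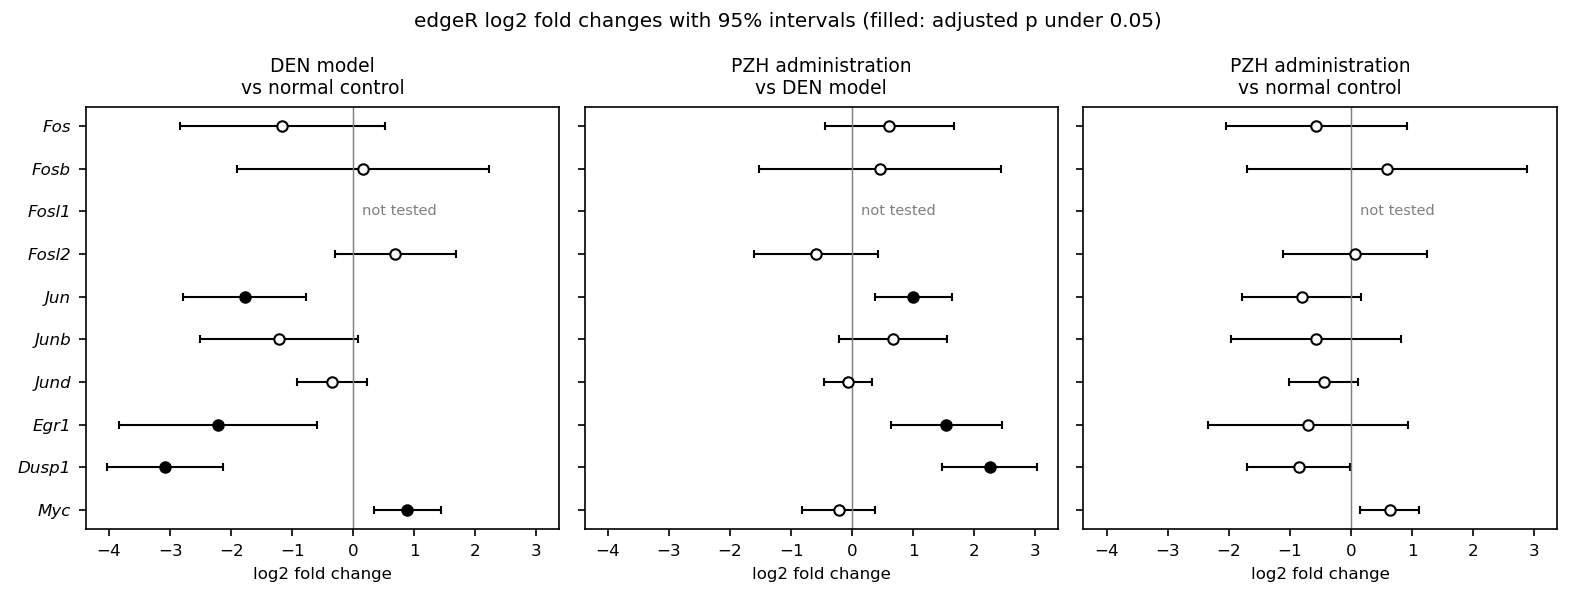
edgeR log2 fold changes (x axis) with 95% intervals for each gene tested (y axis), 1 panel for each of the 3 comparisons; filled points have an adjusted p under 0.05. Dusp1 lies at -3.08 in the first panel and 2.25 in the second, and in the third panel no point is filled.

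The second comparison asked how the same genes stood when PZH had been given with DEN, against DEN alone. Dusp1, Egr1 and Jun were higher in the PZH administration livers, 3 of 9 members tested, and no member was lower. Of the 14272 genes tested, 19.1% passed, 8.72% higher and 10.3% lower. Dusp1 again was the single member past the study's thresholds, which 2.43% of all genes passed. The DEN model rats are the same as in the first comparison, so the opposite signs of these 3 genes are not 2 independent measurements.

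Dusp1 was at 243, 221 and 125 CPM in G27, G28 and G42, each above every DEN model rat (50.1 at most); groups did not overlap for 40.9% of all genes. The PZH administration mean was 197 ± 62.7 CPM (SD, n = 3), 4.74-fold above the DEN model mean (log2 fold change 2.25, SE 0.34, 95% interval 1.47 to 3.02, edgeR adjusted p = 0.010). The call held in every alternative run, with log2 fold changes of 1.99 to 2.5 in the leave-one-out fits and 1.52 on library totals.

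Egr1 was at 143, 172 and 55.7 CPM in G27, G28 and G42, against at most 52.1 in the DEN model rats. The ranges were apart, with G42 just above M17. The mean of 124 ± 60.7 CPM (SD, n = 3) was 2.91-fold higher (log2 fold change 1.54, SE 0.39, 95% interval 0.64 to 2.45, edgeR adjusted p = 0.032). Jun was at 160, 115 and 88.4 CPM in the same rats, all above the DEN model maximum of 71.9 and with G42 again the lowest. Its mean of 121 ± 36.4 CPM (SD, n = 3) was 2.0-fold higher (log2 fold change 1.00, SE 0.28, 95% interval 0.37 to 1.64, edgeR adjusted p = 0.040). Both calls were close to the threshold. They were lost without G27 (Egr1 1.42, Jun 0.74), G28 (1.24 and 1.05), M13 (1.53 and 1.06) or M24 (1.41 and 0.83), on library totals (0.88 and 0.33) and in a fit of all 3 groups (1.51 and 0.97), and the adjusted p ran from 0.0011 to 0.15 for Egr1 and from 0.0060 to 0.27 for Jun.

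The remaining members did not pass. Junb was at 78.6, 42.1 and 26.6 CPM in G27, G28 and G42, a range that held 2 of the 3 DEN model rats (log2 fold change 0.67, SE 0.38, 95% interval -0.21 to 1.56, adjusted p = 0.25), and on library totals the value was -0.01. Jund was at 78.7, 74.1 and 62.4 CPM, with a log2 fold change of -0.07 and an interval of -0.46 to 0.33, the narrowest of the 9. On library totals Jund was lower after PZH (-0.75) and passed.

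Myc was at 56.2, 61.3 and 40.3 CPM in G27, G28 and G42. G42 lay below all DEN model rats and the other 2 within their range. The log2 fold change was -0.22 (SE 0.26, 95% interval -0.82 to 0.38, edgeR adjusted p = 0.59), and without M24 it was 0.02. On library totals it was -0.93 and passed, so the choice of scaling decides the call for Myc here.

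Fos was at 16.5, 19.4 and 9.61 CPM in the PZH administration rats and overlapped the DEN model rats (log2 fold change 0.61, SE 0.46, adjusted p = 0.38; -0.13 on library totals). Fosb, at 0.725, 5.01 and 0.712 CPM, was high in G28 alone, and the log2 fold change of 0.45 (SE 0.86, adjusted p = 0.74) became -1.08 without that rat and -0.26 on library totals. Fosl2 was at 1.41, 0.695 and 0.712 CPM, lower than the DEN model rats in G28 and G42 but not in G27 (log2 fold change -0.59, SE 0.44, adjusted p = 0.38). Fosl1 had 3, 1 and 6 reads, 0.128, 0.0695 and 0.427 CPM, so G42 was level with M17 (0.396 CPM) and the other 2 were below every DEN model rat. It was again outside the fit; without the filter the edgeR adjusted p was 0.042 with lower values in the PZH administration rats.

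The third comparison set the PZH administration rats against normal livers. With edgeR's quasi-likelihood test 0 of 9 members passed, and 2 had an unadjusted p under 0.05, Dusp1 and Myc. DESeq2 and edgeR's exact test also called 0 members. Of all 13348 genes tested, 5.21% passed, 4.07% higher and 1.15% lower. No member passed the thresholds of the study here, which 2.32% of all genes did. Dusp1 was 243, 221 and 125 CPM with PZH and 391, 511 and 183 CPM in normal rats, so that N3 lay within the PZH administration range (log2 fold change -0.86, SE 0.37, 95% interval -1.71 to -0.02, adjusted p = 0.26). Myc was at 40.3 CPM or more in every PZH administration rat and at 40.0 CPM or less in every normal rat, a pattern of no overlap seen in 24.2% of all genes (log2 fold change 0.63, SE 0.22, 95% interval 0.14 to 1.12, adjusted p = 0.15). Jun (-0.81, interval -1.78 to 0.16) and Egr1 (-0.70, interval -2.34 to 0.94) had intervals that hold both 0 and a fall of more than 1 log2 unit, so a p above the threshold does not show that these livers were back at the normal level. Fos (-0.57, SE 0.65), Fosb (0.59, SE 1.01), Fosl2 (0.06, SE 0.52), Junb (-0.58, SE 0.61) and Jund (-0.45, SE 0.25) overlapped between the groups, with adjusted p from 0.40 for Jund to 0.97 for Fosl2. Fosl1, with 3, 1 and 6 reads against 0, 2 and 0, was too low to compare. Without N3 the count of members called was also 0, with -1.20 for Jun and -1.18 for Dusp1.

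**Figure D3:**
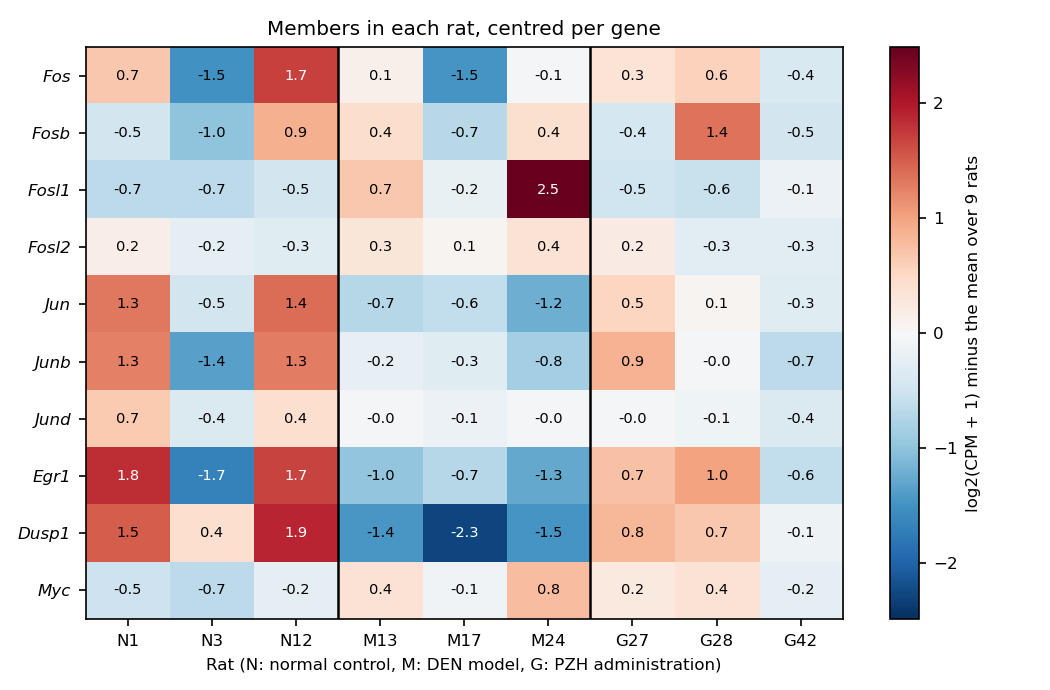
log2(CPM + 1) of each gene (rows) minus its mean over the 9 rats, for each rat (columns); the colour bar gives the difference. N1 and N12 are high for Jun, Egr1 and Dusp1, N3 is low for Fos and Egr1, and the DEN model rats M13, M17 and M24 are low for Dusp1.

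Levels between genes were compared in FPKM, which the authors scaled for length. In normal livers Dusp1 had the highest mean (147), followed by Jun (55.0), Egr1 (52.0), Jund (46.1), Junb (33.2), Fos (11.4) and Myc (6.88), and each of these 7 overlapped its neighbour in the order. Fosl2 (0.966), Fosb (0.171) and Fosl1 (0.0244) were at the bottom. In DEN model livers Jund was first, at 65.2 ± 11.4 FPKM (SD, n = 3), and did not overlap the next gene. Dusp1 (32.0), Jun (28.1), Junb (24.9), Myc (23.5) and Egr1 (19.4) followed with overlapping ranges, then Fos (9.46), Fosl1 (3.03), Fosl2 (2.87) and Fosb (0.357). In PZH administration livers Dusp1 was first again, at 91.9 ± 26.8 FPKM (SD, n = 3) and apart from Jund (38.8), Egr1 (35.8), Jun (35.4), Junb (24.7) and Myc (12.4). FPKM carries no TMM factor, so for Fos, Fosb, Junb and Jund the order of the 3 groups in FPKM differs from that in CPM.

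The make-up of each family within 1 library does not depend on that scaling. Jun made up 40.1%, 43.4% and 36.0% of the summed Jun family FPKM in N1, N12 and N3, 24.3%, 27.2% and 20.1% in M13, M17 and M24, and 36.3%, 35.4% and 35.5% in G27, G28 and G42. The DEN model rats were apart from all 6 others. Jund took 52.6%, 50.2% and 62.4% in M13, M17 and M24, against 33.8%, 29.6% and 51.5% in N1, N12 and N3 and 32.8%, 42.1% and 46.1% in G27, G28 and G42, so N3 alone reached the DEN model range. In the Fos family, Fos made up 87.4%, 94.7% and 70.0% in N1, N12 and N3, 72.5%, 56.7% and 51.5% in M13, M17 and M24, and 83.4%, 87.5% and 82.1% in G27, G28 and G42. The share of Fosl1 was 7.51%, 5.42% and 31.5% in the DEN model rats and at most 3.48% in any other rat. These shares are given as a description; with 3 rats against 3 an exact permutation test cannot go below 0.1.

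**Figure D4:**
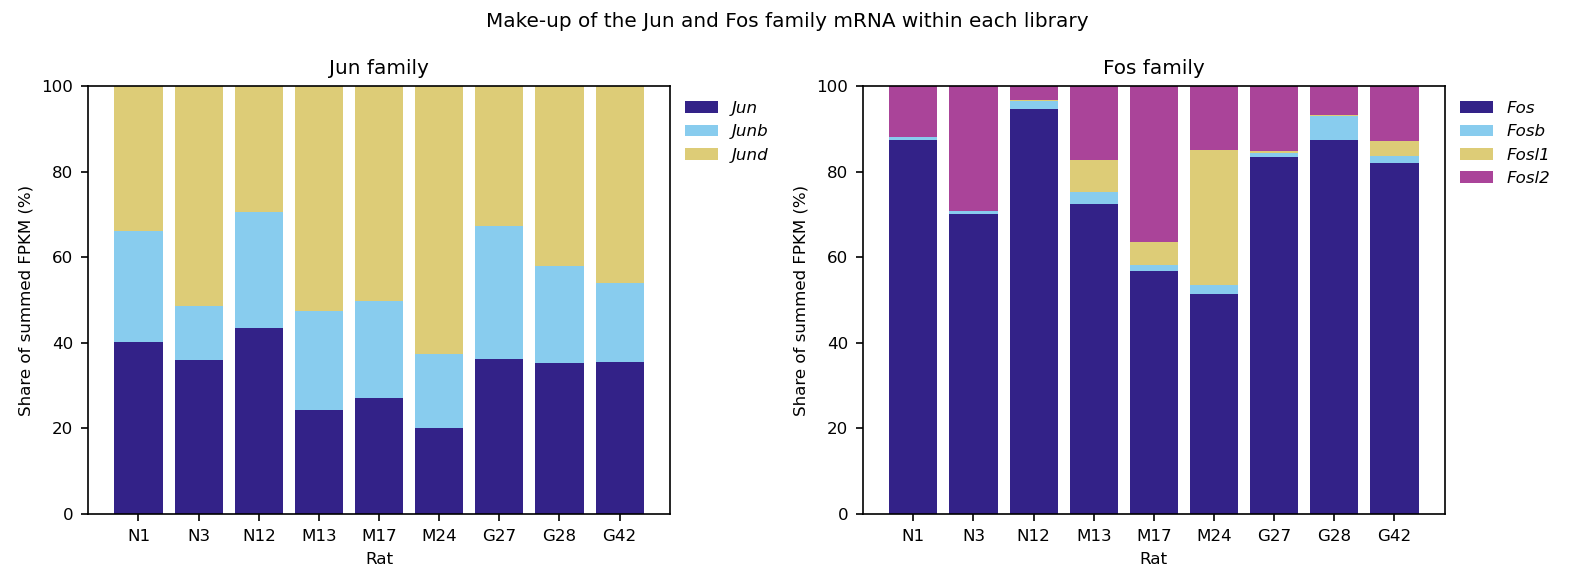
Share of the summed FPKM (y axis, percent) held by each gene of the Jun family and of the Fos family in each of the 9 rats (x axis). Jun holds 20.1% to 27.2% in the DEN model rats and 35.4% to 43.4% in the others, and Fosl1 reaches 31.5% in M24.

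The genes whose profile over the 9 rats lay nearest to a member, by the root mean square distance of mean-centred log2(CPM + 1) among 12732 genes, differed from member to member. Nearest to Dusp1 was Zbtb16 (0.28), a zinc finger gene induced by glucocorticoids, then Crym (0.33) and Sat2 (0.40); the SD of Dusp1 itself was 1.36. Near to Jun (SD 0.86) were Cacna2d4 (0.23) and Clec4g (0.24), the latter a lectin of sinusoidal endothelium. Egr1 (SD 1.25) was nearest to Adam11 (0.43), Nim1k (0.54) and Junb (0.54), and Fos (SD 0.96) to Cyr61 (0.53), Tstd1 (0.54) and Dnmt3b (0.56). Myc (SD 0.44) had Slc24a3 (0.09), Btn2a2 (0.14) and Il16 (0.14) as its neighbours. Slc24a3 was at 0, 0.229 and 0 CPM in N1, N12 and N3 and at most 1.37 CPM in any rat. Btn2a2 lay at 0.312 to 2.04 CPM, against 29.8 to 81.2 CPM for Myc. The 1 CPM added before the log narrows the spread of genes at such low levels, so their small distances mean little. Cacna2d4, Adam11, Nim1k and Sat2 were also below 1 CPM in some rats. The distances are over 9 rats that differ by group and are given without a test.

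Other genes of the same pathways were counted by list, to be read against the 25.3% of all genes that were higher and 20.5% lower after DEN, or 57% and 6.72% on library totals. After DEN, 4 of 29 other immediate-early genes were higher and 11 lower, with a median log2 fold change of -0.43 against 0.03 over all genes. Errfi1, a feedback inhibitor of the EGF receptor, went from 2080 to 256 CPM (log2 fold change -3.01, adjusted p = 0.00021), and Zfp36, which destabilises short-lived mRNAs, from 188 to 43.8 CPM (-2.09, adjusted p = 0.0018). Trib1 was lower (-1.84). Ctgf, a matricellular growth factor, went from 18.3 to 143 CPM (2.98, adjusted p = 0.00063). On library totals the count was 8 higher and 4 lower and the list's median turned to 0.42.

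Of 11 other AP-1 dimer partners, 2 were higher after DEN (Batf, 2.97, and Maff, 1.72) and 2 lower (among them Atf4, -0.72), a median of -0.25 that became 0.58, with 4 higher and 1 lower, on library totals. Without N3, 1 of 12 was higher and 3 were lower, with a median of -0.55. The normal mean of Batf, 0.155 CPM, was below 3 reads per library, so the size of its change is uncertain. The MAP kinase cascade and its SRF-TCF factors had 28 tested entries, with Map2k3 under more than 1 gene identifier. Of these, 6 were higher and 6 lower, with a median of -0.03, shares near those of all genes. On library totals 14 were higher and 0 lower, with a median of 0.80. Mapk13, which encodes p38 delta, had the largest change (4.56). Its normal mean, 0.232 CPM, was below 3 reads per library, so the size of that change is uncertain. Of the 14 other dual-specificity phosphatases and MAP kinase feedback genes, 6 were higher and 1 lower (median 0.11; 10 higher and 0 lower with a median of 0.98 on library totals): Dusp4, the nuclear phosphatase of ERK and JNK, rose from 1.82 to 16.9 CPM (3.22, adjusted p = 0.0029), and Dusp2 (1.67) and Spry2 (1.49) were higher. Dusp9 had no reads in the normal or the PZH administration rats against a DEN model mean of 0.545 CPM, at least 2.29-fold above the normal floor of 3 reads per library.

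The Myc network, with 3 of 13 genes higher and 1 lower (median 0.10; 10 higher and 0 lower with a median of 0.96 on library totals), included Mycn, at 0.102 CPM in normal and 1.04 CPM in DEN model livers (3.25, adjusted p = 0.021). That normal mean was below 3 reads per library, so the size of the change in Mycn is uncertain. Mxd1 (1.25) and Mxi1 (0.58), which encode partners of Max that oppose Myc, were higher and Mlx (-0.92) was lower. Without N3 the network held 1 gene higher and 2 lower, with a median of 0, beside 24.6% and 21.1% of all genes. Of 24 textbook Myc targets, 2 were higher and 7 lower after DEN (median -0.21). Ccnd2, a cyclin, was higher (2.5), and Ldha, lactate dehydrogenase A, was lower (-1.92), as were Tert (-1.45) and Rrs1 (-1.14). On library totals the Myc targets were 13 higher and 1 lower, with a median of 0.64.

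Genes known as AP-1 targets were mostly higher in the DEN model group. Of 12 tested, 11 were higher after DEN and 0 lower, with a median of 3.09 (12 higher and a median of 3.99 on library totals): Spp1 (osteopontin) went from 1.06 to 63.5 CPM (5.92, adjusted p = 0.00041), and the metalloelastase gene Mmp12 (4.77), the chemokine gene Ccl2 (4.76) and the adhesion receptor gene Cd44 (4.33) were also higher. Several of these genes are also expressed by ductular cells, myofibroblasts and inflammatory cells including macrophages. The normal mean of Ccl2, 0.239 CPM, was level with 3 reads per library, so the size of its change is uncertain. In the same rats 6 of 6 cholangiocyte and ductular, 7 of 7 stellate cell and myofibroblast and 5 of 6 granulocyte and mast cell markers were higher after DEN, while of 6 macrophage markers 0 were higher and 2 lower (Marco, -2.72, and Cd14, -0.85), which became 4 higher and 1 lower on library totals. The part of those cells in the count was not tested.

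Most of the glucocorticoid-responsive genes tested were lower along with Dusp1, itself a gene that glucocorticoids induce. Of 10 tested, 7 were lower after DEN and 0 higher (median -2.05, and -1.21 with 6 lower and 1 higher on library totals). Fkbp5 (-0.62), Sgk1 (0.62) and Cebpd (0.24) did not pass with TMM. Tat, tyrosine aminotransferase, went from 2880 to 283 CPM (-3.33, adjusted p = 0.00056), Zbtb16 from 42.8 to 4.34 CPM (-3.28, adjusted p = 0.00047), and Pck1 (-2.66) and Klf9 (-2.37) were lower too. Tat and Pck1 are hepatocyte genes, and 3 of 6 hepatocyte markers were lower in the same rats with 0 higher. The part of hepatocytes in this count was not tested, nor was any part of glucocorticoids in the level of Dusp1. Of 7 heat-shock genes, 2 were lower (Hsph1, -1.43, and Dnajb1, -1.17) and 0 higher, with a median of -0.49 that became 0.36, with 1 lower, on library totals.

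With PZH against DEN alone, where 8.72% of all genes were higher and 10.3% lower (3.9% and 39.9% on library totals), 7 of 12 AP-1 targets were lower and 0 higher (median -1.56, with 12 lower on library totals), among them Spp1 (-2.96), Mmp9 (-2.86), Cd44 (-2.33) and Vim (-1.95). Of the 10 glucocorticoid-responsive genes, 5 were higher and 0 lower (median 1.37; 5 higher and 2 lower on library totals): Zbtb16 (2.76, adjusted p = 0.0087), Tat (2.06), Klf9 (1.92) and Tdo2 (1.87). In the same comparison 6 of 6 cholangiocyte and ductular, 5 of 7 stellate cell and myofibroblast, 3 of 6 macrophage and 3 of 6 granulocyte and mast cell markers were lower and 2 of 6 hepatocyte markers higher, and their part in these counts was not tested. The DEN model rats are those of the first comparison, so opposite signs of a list are not independent results. Among 29 other immediate-early genes 4 were higher and 3 lower (median 0.07, and -0.58 with 1 higher and 8 lower on library totals); Errfi1 (2.05, adjusted p = 0.0089), Csrnp1 (1.28) and Zfp36 (1.14) were higher and Ctgf (-2.24, adjusted p = 0.014) was lower.

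Of the 14 phosphatase and feedback genes, 4 were lower with PZH than with DEN alone and 0 higher (10 lower on library totals, where 39.9% of all genes were lower against 10.3% with TMM): Dusp4 (-2.18, adjusted p = 0.029), Dusp2 (-2.07), Dusp10 (-1.58) and Dusp9, which was at least 2.97-fold lower. In the Myc network, Mycn was lower (-3.13, adjusted p = 0.025) and Mlx higher (0.64), against 8 lower and 0 higher on library totals. The PZH administration mean of Mycn, 0.104 CPM, was below 3 reads per library, so the size of its change is uncertain. Of the 24 Myc targets, 4 were higher and 1 lower, which turned to 0 higher and 8 lower on library totals: Ccnd2 (-2.22) was lower and Tert (1.13), Ldha (0.91) and Polr1b (0.67) were among the higher. Of the 28 MAP kinase cascade entries, 4 were higher and 3 lower (0 higher and 12 lower on library totals). Mapk13 (-3.50), Elk3 (-1.24) and Mapk3 (-0.99) were lower and Mapk9 (0.87) was higher. No AP-1 dimer partner of 11 passed in edgeR's quasi-likelihood test, and 4 had an unadjusted p under 0.05 (among them Atf7, Batf and Maff); 4 were lower on library totals. Of 7 heat-shock genes, 2 were higher (Hsph1, 0.92, and Dnajb1, 0.63), against 0 on library totals, where the median was -0.21.

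Against normal livers, 6 of 11 AP-1 targets were higher in PZH administration livers and 0 lower (median 1.28), beside 4.07% of all genes higher; 7 were higher on library totals, and without N3 3 were, beside 2.31% of all genes. They included Mmp12 (3.94), Ccl2 (3.12), Spp1 (2.93) and Cd44 (1.96). The size for Ccl2 is uncertain, since its normal mean of 0.239 CPM was level with 3 reads per library. In the same comparison 6 of 6 cholangiocyte and ductular, 4 of 7 stellate cell and myofibroblast and 4 of 4 proliferation markers were higher (5, 3 and 3 without N3), and their part in the count was not tested. Tat, 1 of 10 glucocorticoid-responsive genes, was lower (-1.31, adjusted p = 0.014), 1 of 28 other immediate-early genes, Plk3, was lower (-1.56; not called on library totals), and 1 Myc target, Ldha, was lower (-1.04).

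**Figure D5:**
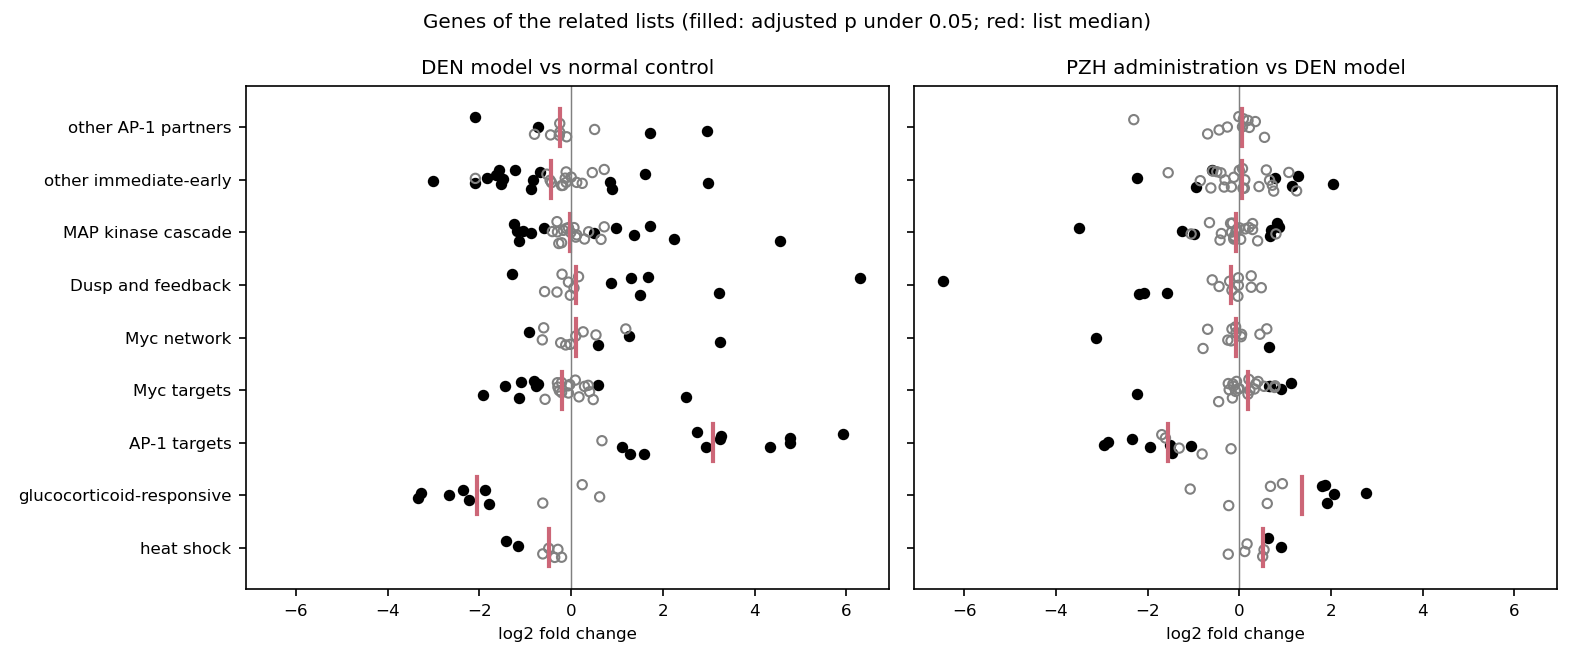
edgeR log2 fold change (x axis) of every tested gene in each related list (y axis), 1 panel per comparison; filled points have an adjusted p under 0.05 and the red mark is the list's median. The median of the AP-1 targets lies to the right for DEN model against normal control (3.09) and to the left for PZH administration against DEN model (-1.56). The median of the glucocorticoid-responsive genes lies on the opposite side in each (-2.05 and 1.37). Both panels share the same DEN model rats, so opposite sides are not independent results.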

How the data were processed

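Liver mRNA of 9 rats was sequenced by the authors, 1 library per rat. The submitters' processing notes name fastp, HISAT2 2.1.0, StringTie 1.3.3b and edgeR 3.30.3; the genome build is not given in the sources used here. The authors deposited 1 table whose count columns hold raw reads per gene and rat. The authors also deposited FPKM, in which those reads are divided by gene length and library total, without TMM. The deposited log2 ratios between groups with their P and Q columns are the authors' own comparisons and were not used. All per-rat columns were used.

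Counts were tested in R 4.3.3 with edgeR 4.0.16 by its quasi-likelihood test (filterByExpr, TMM, glmQLFit, then glmQLFTest), each fit holding the 6 rats compared and no covariate, with Benjamini-Hochberg adjustment over all genes tested. SEs are the absolute log2 fold change over the square root of F, and intervals are 95%. The fits were tested on simulated data. CPM were computed from TMM-scaled library totals of the 9 rats. Alternatives were DESeq2 1.42.0, edgeR's exact test, RLE factors, library totals, no filter, a minimum of 10 counts per rat, all 3 groups in 1 fit, the study's thresholds, leaving out each rat and, chosen after seeing the data, robust dispersion. The members and lists were chosen with earlier results of these data known. The rule for naming took all members, up to 4 called genes per list with the largest absolute log2 fold change, and the 3 nearest neighbours of Fos, Jun, Egr1, Dusp1 and Myc; Mcl1, Mlxipl and other list genes that the table does not list by symbol were left out. Some genes that this rule takes are not reported here.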

Additional observations from a re-analysis of the deposited data

How the results depend on the processing

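Dusp1 kept its direction and its side of the threshold in all 3 comparisons under every alternative run. Over the leave-one-out fits, members called ran from 2 to 6 (DEN model against normal control, with 32.7% to 45.7% of all genes called) and from 1 to 4 (PZH administration against DEN model, with 1.87% to 22.6%), and all genes called from 271 to 3319 in the latter and from 207 to 1326 in PZH administration against normal control. The fit of all 3 groups called 1 member with PZH against DEN alone, and 20% of all genes. Applied to these fits, the study's thresholds called 1 member in each comparison with the DEN model group, and 1753, 347 and 310 genes in the 3 comparisons. These are not the study's own counts: the paper reported more genes in both comparisons with the DEN model group. Library totals called 6252 genes with PZH against DEN alone, 556 higher and 5696 lower, against 1245 and 1477 with TMM; after DEN they called 8126 higher and 958 lower, against 3612 and 2917. Against normal control, PZH administration gave 696 genes, 1320 with DESeq2, 1310 with the exact test and 340 with at least 10 counts in every rat. Directions turned on library totals for Jund after DEN (0.50) and for Fos (-0.13), Fosb (-0.26) and Junb (-0.01) with PZH against DEN alone. Leave-one-out ranges that cross 0 were -0.37 to 1.84 for Fosb after DEN; -1.08 to 0.89 for Fosb, -0.14 to 0.04 for Jund and -0.43 to 0.02 for Myc with PZH against DEN alone; and -1.07 to 0.31 for Fos, -0.95 to 2.24 for Fosb and -0.39 to 0.38 for Fosl2 with PZH against normal control. The cause was not tested. Few reads limit Fosl1, Fosb and Fosl2. No paired analysis was possible because the groups share no rat numbers.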
